A study of Mus musculus with 9 samples.

Results

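Antibodies to surface proteins are used to isolate undifferentiated spermatogonia, the germ cell compartment that holds spermatogonial stem cells (SSCs), and 7 genes that encode such proteins were followed here: Epcam, Cdh1, Mcam, Cd9, Thy1, Cd24a and Ngfr. The rule that names them uses no measured value, but they were chosen with earlier results of these data known. Among the 46078 gene identifiers, 7 of 7 had counts. RNA-seq read counts were available for 9 libraries of EGFP-SSC, 1 mouse SSC line with the genotype WT that expresses green fluorescent protein. The 3 libraries at 0 h came from the line in normal culture on mitomycin C-treated mouse embryonic fibroblast feeders, in medium with GDNF, basic fibroblast growth factor and epidermal growth factor. The 3 libraries at 24 h and the 3 at 48 h came from EGFP-positive cells sorted by flow cytometry after differentiation. To differentiate, these cells shared a culture, 1:1, with testicular somatic cells of busulfan-exposed mice of 3-7 days postpartum, in medium with KSR, BMP-4/7, retinoic acid, activin A, testosterone, FSH and BPE. Medium and partner cells changed together with time, and their effects cannot be told apart. The labels describe the sort for 24 and 48 h and do not say how the 0 h cells were separated from their feeders.

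SSCs are kept undifferentiated by GDNF, which signals through the receptor RET and its partner GFRA1, and retinoic acid moves undifferentiated spermatogonia toward the differentiating state, in which the receptor KIT appears on the surface. Because the surface proteins of undifferentiated spermatogonia can be bound by antibodies on living cells, they serve to enrich stem cells from testes. None of them is exclusive to germ cells: EPCAM and E-cadherin (encoded by Cdh1) are adhesion molecules of epithelia, MCAM is found on endothelial and smooth muscle cells, THY1 on fibroblasts and lymphocytes, and NGFR on neurons and glia.

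The messages of 6 of the 7 markers fell on differentiation and that of Cd24a rose. At 24 h, Epcam, Cdh1, Mcam, Cd9, Thy1 and Ngfr stood at 28.1% to 39.3% of their 0 h means in CPM, the read count scaled to a common library size, and Cd24a stood at 181%. By 48 h, Cdh1 and Ngfr had reached 14.5% and 16.0% of the 0 h mean, Mcam 25.8%, Epcam 31.2%, Cd9 36.3% and Thy1 49.9%, whereas Cd24a stood at 361%. Changes were called with the quasi-likelihood test of edgeR at a Benjamini-Hochberg adjusted p of up to 0.05 over all genes tested, named edgeR adjusted p from here on. At 24 h against 0 h, 7 of 7 markers were called, 6 of them lower, where 25.5% of all 17592 genes tested were called and 14.2% were called lower. At 48 h against 0 h, again 7 of 7 were called and 6 were lower, against 31.6% of all 17755 genes tested called and 18.5% called lower. Between 48 h and 24 h, 5 of 7 were called, Cdh1, Mcam and Ngfr lower and Thy1 and Cd24a higher, against 21.3% of all 17499 genes called, 12.7% lower and 8.61% higher. The median log2 fold change of the 7 markers was -1.55 at 24 h against 0 h and -1.67 at 48 h against 0 h, where the median of all genes tested was 0.01 and 0.02. These comparisons share libraries, the 0 h ones or the 24 h ones, and are not independent of each other.

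**Figure D1:**
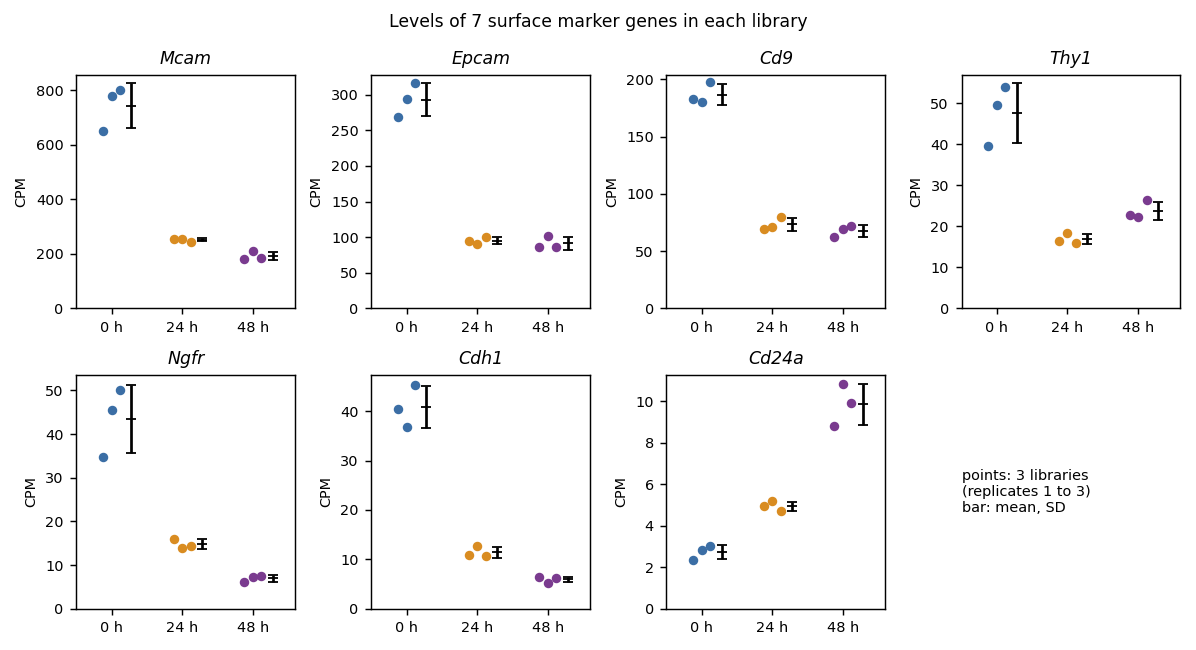
Levels of the 7 surface marker genes in CPM (vertical axis, from 0) in each library at 0, 24 and 48 h (horizontal axis); points are the 3 libraries of a time and the bar gives their mean and SD. The 0 h points lie above all later points in every panel except Cd24a, whose 0 h libraries, at 2.34 to 3.02 CPM, lie below the rest.

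Library totals ran from 16825251 to 22201892 counts. The general germ cell markers Ddx4 and Dazl, which encode RNA-binding proteins, had means of 356 and 862 CPM at 0 h and 380 and 760 CPM at 48 h, with no call for either. Their 0 h libraries were far apart, at 455, 396 and 215 CPM for Ddx4 and 1332, 828 and 425 CPM for Dazl. For Ddx4 and Dazl, the missing calls thus do not show steady levels. Among other general germ cell markers, the 0 h libraries of Tdrd1 had 204, 195 and 190 CPM and those of Mael 199, 198.5 and 223 CPM. Their means at 48 h were 238 and 231 CPM, with no call in any comparison. Tex101 was not called either. Sycp1 was widely spread at 0 h, at 171, 22.6 and 42.6 CPM, and Dnd1 was lower at 48 h against 0 h. The labels call the replicates biological but do not say that they were separate cultures, so p-values measure the spread between these samples of 1 line, which may be technical. Of the genes called at 24 h against 0 h, 44.5% were higher, and 57.1% when libraries were scaled by their totals alone, which raised the median log2 fold change of all genes by 0.11. For 48 h against 0 h the share was 41.2%, and 52.8% with totals alone, with a like shift of 0.11. In these bulk libraries, fewer cells of a type and less RNA per cell cannot be told apart.

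Mcam (ENSMUSG00000032135, chr9:44134469-44142727 on the plus strand, GRCm38), which encodes an immunoglobulin-type adhesion molecule also named CD146, had 651, 778 and 803 CPM at 0 h. At 24 h its libraries had 256, 256 and 245 CPM, and at 48 h 183, 209.8 and 184 CPM. The libraries of the 3 times did not overlap, with the 0 h libraries highest and the 48 h libraries lowest. Its log2 fold change was -1.56 ± 0.11 (SE, n = 3 and 3) at 24 h against 0 h (edgeR adjusted p = 9.76e-05), and -1.95 ± 0.12 at 48 h against 0 h (edgeR adjusted p = 3.99e-05). From 24 to 48 h Mcam fell further by 0.39 on the log2 scale (edgeR adjusted p = 0.00323).

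Epcam (ENSMUSG00000045394, chr17:87635979-87651129, plus strand), the epithelial cell adhesion molecule also used to sort spermatogonia, had 269, 294 and 316 CPM at 0 h. Its libraries had 94.3, 90.3 and 101 CPM at 24 h and 86.1, 102 and 86.3 CPM at 48 h. The 0 h libraries stood above all the others, and the 24 h and 48 h libraries overlapped. Epcam fell, with log2 fold changes of -1.62 by 24 h (SE 0.10, edgeR adjusted p = 6.15e-05) and -1.67 by 48 h (SE 0.11, edgeR adjusted p = 6.47e-05). Between 24 and 48 h the log2 fold change was -0.050 (95% interval -0.22 to 0.12, edgeR adjusted p = 0.681), and its sign turned, to 0.015 without replicate 3 at 24 h and to 0.0023 without replicate 1 at 48 h.

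Cdh1 (ENSMUSG00000000303, chr8:106603351-106670246, plus strand) encodes E-cadherin, which joins neighbouring cells by calcium-dependent binding and marks undifferentiated type A spermatogonia. It had 40.4, 36.7 and 45.4 CPM at 0 h, 10.9, 12.7 and 10.7 CPM at 24 h, and 6.35, 5.29 and 6.15 CPM at 48 h. Each later time lay wholly below the earlier one. With log2 fold changes of -1.83 ± 0.14 at 24 h (edgeR adjusted p = 0.000124) and -2.78 ± 0.14 at 48 h (edgeR adjusted p = 2.1e-05), both against 0 h, Cdh1 had the lowest values of the 7 in both comparisons. Of all genes tested at 48 h against 0 h, 1.96% had a lower log2 fold change. It also fell between 24 and 48 h, by 0.94 on the log2 scale (SE 0.14, edgeR adjusted p = 0.00244).

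Cd9 (ENSMUSG00000030342, chr6:125460266-125494791, minus strand) encodes a tetraspanin, a protein that crosses the membrane repeatedly and gathers integrins and immunoglobulin-type partners into membrane domains. Its libraries had 182, 180.2 and 197 CPM at 0 h, 69.7, 70.9 and 79.5 CPM at 24 h, and 62.0, 69.0 and 72.2 CPM at 48 h. Every 0 h library lay above the rest, while the 24 h and 48 h libraries overlapped. Cd9 fell by 24 h (log2 fold change -1.35, SE 0.10, edgeR adjusted p = 0.000135) and stood at -1.46 by 48 h (SE 0.10, edgeR adjusted p = 8.06e-05). From 24 to 48 h its log2 fold change was -0.11 (95% interval -0.30 to 0.08, edgeR adjusted p = 0.376). The exons of Cd9 overlap those of Gm26728, a gene on the opposite strand, by 218 bases, and the use of strand in counting is not given in the sources used here. Gm26728 itself had 0 to 4 counts per library.

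Thy1 and Cd24a both encode proteins held in the membrane by a glycosylphosphatidylinositol (GPI) anchor, and their courses differed. Thy1 (ENSMUSG00000032011, chr9:44043384-44048579, plus strand), the source of the CD90 antigen used to enrich SSCs from mouse testes, had 39.6, 49.5 and 53.9 CPM at 0 h, 16.3, 18.3 and 16.0 CPM at 24 h, and 22.6, 22.3 and 26.4 CPM at 48 h. Its libraries did not overlap between any of the times, and the 48 h libraries lay between those of 24 h and 0 h. Thy1 fell by 1.49 on the log2 scale by 24 h (SE 0.14, edgeR adjusted p = 0.000347). It then rose by 0.50 from 24 to 48 h (SE 0.10, edgeR adjusted p = 0.00989), to a level that was still lower than at 0 h, with a log2 fold change of -0.996 ± 0.14 (edgeR adjusted p = 0.00193). When all 9 libraries entered 1 fit, the rise from 24 to 48 h was 0.51 with an edgeR adjusted p of 0.0551.

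Cd24a (ENSMUSG00000047139, chr10:43578284-43584265, plus strand) encodes a small, heavily glycosylated protein known as heat-stable antigen. It had 2.34, 2.82 and 3.02 CPM at 0 h, 4.93, 5.17 and 4.73 CPM at 24 h, and 8.81, 10.8 and 9.91 CPM at 48 h. These levels rested on 38, 57 and 60 counts at 0 h and on 172, 245 and 198 counts at 48 h. Each later time lay wholly above the earlier one, and at 48 h against 0 h 22.6% of all genes tested showed such a rise without overlap. The log2 fold change was 0.86 ± 0.20 at 24 h against 0 h (edgeR adjusted p = 0.0169), 1.00 ± 0.13 at 48 h against 24 h (edgeR adjusted p = 0.00139) and 1.85 ± 0.18 at 48 h against 0 h (edgeR adjusted p = 0.000342). The call at 24 h was lost without replicate 2 of 0 h (edgeR adjusted p = 0.0608) and without replicates 1, 2 or 3 of 24 h (edgeR adjusted p = 0.0679, 0.0754 and 0.0551), with log2 fold changes of 0.82 to 0.89 in these fits.

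Ngfr (ENSMUSG00000000120, chr11:95568818-95587735, minus strand) encodes p75, a receptor of the tumour necrosis factor receptor family that binds all neurotrophins. Its libraries had 34.8, 45.5 and 50.1 CPM at 0 h, 16.1, 13.9 and 14.3 CPM at 24 h, and 6.10, 7.37 and 7.46 CPM at 48 h. No library of a later time reached any library of an earlier one. Ngfr fell, with log2 fold changes of -1.55 ± 0.16 at 24 h (edgeR adjusted p = 0.000441) and -2.63 ± 0.17 at 48 h (edgeR adjusted p = 4.92e-05), both against 0 h. It fell between 24 and 48 h as well, with a log2 fold change of -1.08 ± 0.12 (edgeR adjusted p = 0.000613).

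**Figure D2:**
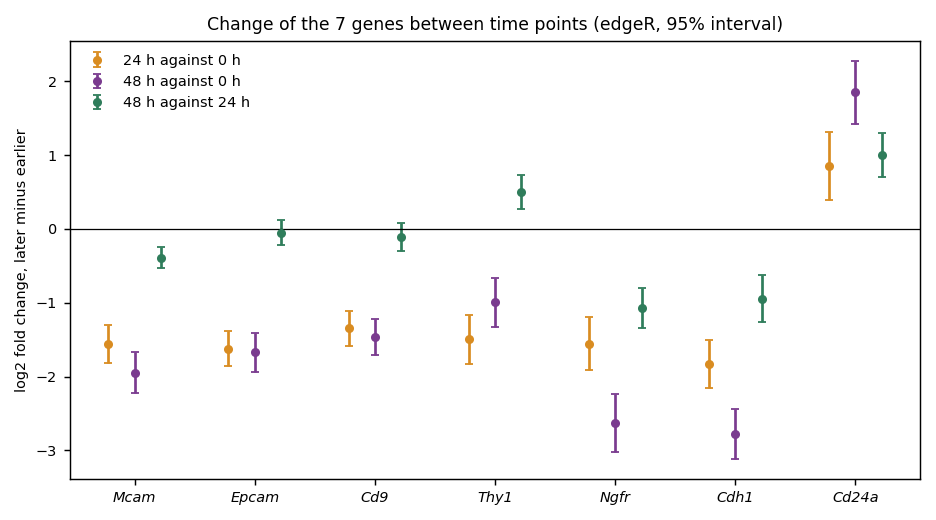
Log2 fold change (vertical axis, later minus earlier time) of each of the 7 genes (horizontal axis) in the 3 comparisons of times, from edgeR; points are estimates from 3 against 3 libraries and bars their 95% intervals. The intervals of Epcam and Cd9 at 48 h against 24 h cross 0, and Cd24a is the gene whose estimates are above 0 in all 3 comparisons.

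Over both intervals, the markers fell into courses of unlike shape. Cdh1, Mcam and Ngfr fell in both intervals, Epcam and Cd9 fell by 24 h with no call after it, Thy1 fell and then rose in part, and Cd24a rose in both intervals. The libraries of 24 h and 0 h did not overlap in 7 of 7 markers, against 43.1% of all genes, with 6 lower and Cd24a higher, against 21.6% and 21.5% of all genes. Those of 48 h and 0 h did not overlap in 7 of 7 either, against 48.1% of all genes, with 6 lower, against 25.5%. Between 48 h and 24 h, 5 of 7 markers did not overlap, against 38.9% of all genes, with 3 lower and 2 higher, against 21.2% and 17.7%.

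Per kb of exons, the order of the levels shifted at its lower end. Per kb of the union of exons at 0 h, Mcam stood at 222 ± 24.3 CPM (SD, n = 3), Epcam at 133 ± 10.7, Cd9 at 91.4 ± 4.59, Thy1 at 15.9 ± 2.45, Ngfr at 12.6 ± 2.28, Cdh1 at 8.93 ± 0.946 and Cd24a at 1.06 ± 0.136. Among neighbours in this order, Thy1 and Ngfr overlapped over the libraries and the others did not. The order was the same at 24 h, when no neighbours overlapped and Cd24a stood at 1.92 ± 0.0865 CPM per kb. At 48 h, Cd24a had moved from the last to the fifth place with 3.82 ± 0.387 CPM per kb, above Ngfr at 2.02 ± 0.221 and Cdh1 at 1.30 ± 0.123, without overlap. Mcam, Epcam and Cd9 remained the upper 3, at 57.3, 41.7 and 33.1 CPM per kb. With the longest transcript as length, Cd9 stood above Epcam, overlapping with it at 0 h, and Cd24a and Cdh1 overlapped at 24 h.

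**Figure D3:**
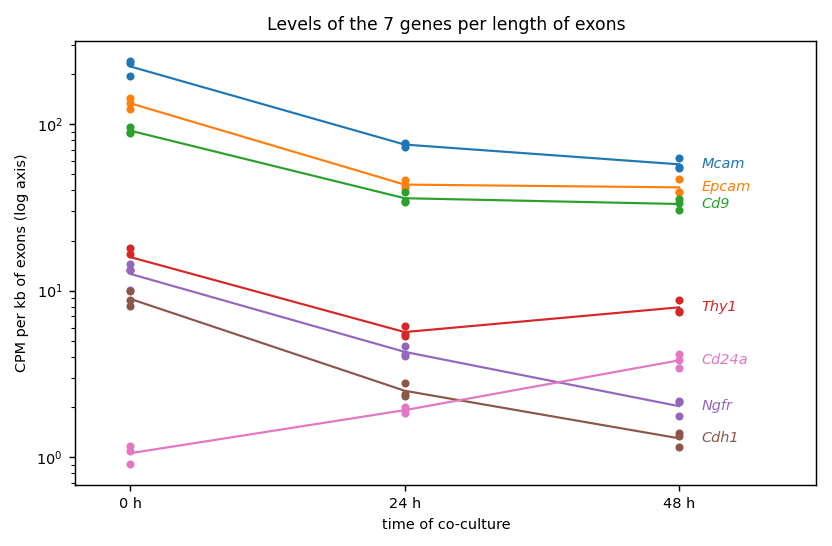
Level of the 7 genes in CPM per kb of exons (vertical log axis) at 0, 24 and 48 h of co-culture (horizontal axis). Points are single libraries, 3 at each time, and lines join the means of the times. Cd24a starts last at 1.06 and ends above Ngfr and Cdh1 at 3.82 CPM per kb.

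Set among 19350 protein-coding genes ranked by CPM per kb, Mcam lay above 99.3% of them at 0 h and 96.8% at 48 h, and Epcam above 98.8% and 94.5%. Cd9 lay above 98.03% and 92.4%, and Thy1 above 81.1% and 69.1%. Ngfr moved from above 76.9% to above 47.9%, Cdh1 from above 70.4% to above 42.8%, and Cd24a from above 40.2% to above 56.4%.

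Windows around the transcription start, from RefSeq for GRCm38.p6, were held for 4 of the 7 markers, Epcam, Cd9, Mcam and Ngfr, and only these are described. The messages of these 4 fell by 24 h, as did those of Cdh1 and Thy1, for which no window was held. The windows run from 250 bases before the start to 50 after it. They were searched on both strands for 3 motifs, the E-box CACCTG, which the repressors of Cdh1 bind, the GC box GGGCGG of SP and KLF factors, and the ETS core GGAAGT. The parts before the first annotated transcript are given for Epcam (chr17:87635729-87635978, plus strand), which held the most E-boxes, and for Cd9 (chr6:125494792-125495010, minus strand) and Ngfr (chr11:95587736-95587948, minus strand), which differ from it in GC boxes. They read 5′ to 3′ along the gene, with capitals at E-boxes (CACCTG or its reverse complement CAGGTG) and GC boxes (GGGCGG or CCGCCC).
Epcam: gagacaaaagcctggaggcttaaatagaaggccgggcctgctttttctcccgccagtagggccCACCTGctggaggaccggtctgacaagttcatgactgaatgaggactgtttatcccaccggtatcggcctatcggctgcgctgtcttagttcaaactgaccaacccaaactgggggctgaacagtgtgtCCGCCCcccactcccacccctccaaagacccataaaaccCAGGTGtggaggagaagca
Cd9: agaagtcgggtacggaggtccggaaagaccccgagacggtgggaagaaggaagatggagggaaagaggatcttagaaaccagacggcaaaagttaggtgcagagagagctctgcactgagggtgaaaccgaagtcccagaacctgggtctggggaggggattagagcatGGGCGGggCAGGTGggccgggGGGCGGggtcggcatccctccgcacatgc
Ngfr: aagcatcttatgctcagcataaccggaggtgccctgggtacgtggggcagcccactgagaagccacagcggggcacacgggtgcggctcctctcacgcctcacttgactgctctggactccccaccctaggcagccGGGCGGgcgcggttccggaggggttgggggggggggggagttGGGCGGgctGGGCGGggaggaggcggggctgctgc

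Counted back from -1 at the base before the RefSeq start, the E-boxes of Epcam began at -187 and -19 and its GC box at -58. Cd9 had an E-box at -73 between GC boxes at -81 and -60, and Mcam had an E-box at -212 and 5 GC boxes. Ngfr had 4 GC boxes, 1 of which (at -16) lies outside the printed stretch, and no CACCTG in this window. No match overlapped another, and none of the 4 windows held GGAAGT. Over 32851 windows of the same length, 20.2% held the E-box, 35.7% the GC box and 23.8% the ETS core. CpG dinucleotides numbered 11 in Epcam, 18 in Cd9, 23 in Ngfr and 29 in Mcam, where the median of all windows was 7.

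Other surface proteins that mark spermatogonia formed a list of 14 genes, of which 6 were lower and 3 higher at 24 h against 0 h, and at 48 h against 0 h 6 were lower and 2 higher, where 25.5% and 31.6% of all genes were called. Without replicate 1 of 24 h, 1 of the 14 rather than 3 was higher at 24 h. Both receptor genes of GDNF fell: Ret had 643 ± 73.2, 47.4 ± 1.48 and 34.2 ± 3.61 CPM (SD, n = 3) over the times in order, and Gfra1 had 229.7 ± 11.9, 36.6 ± 2.77 and 17.9 ± 1.93 CPM. Epha2, a receptor of ephrins, went from 401 ± 64.8 to 16.8 ± 1.51 CPM at 48 h, with a log2 fold change of -4.57 (edgeR adjusted p = 6.39e-06). Thus Gfra1 (-3.67), Ret (-4.22) and Epha2 at 48 h against 0 h had lower log2 fold changes than any of the 7 markers.

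Itga6, the laminin-binding integrin that is also used to sort SSCs, fell by 1.66 on the log2 scale at 48 h against 0 h (edgeR adjusted p = 0.000214). Its partner Itgb1, with means of 301 CPM at 0 h and 312 CPM at 48 h, was not called, and the sign of its difference at 24 h against 0 h turned when libraries were scaled by totals alone. Kit, which marks differentiating spermatogonia, had 8.45 ± 1.16 CPM at 0 h and rose to 571 ± 40.4 by 24 h, a log2 fold change of 6.08 (edgeR adjusted p = 2.68e-06), and then fell to 328 ± 13.1 CPM at 48 h.

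**Figure D4:**
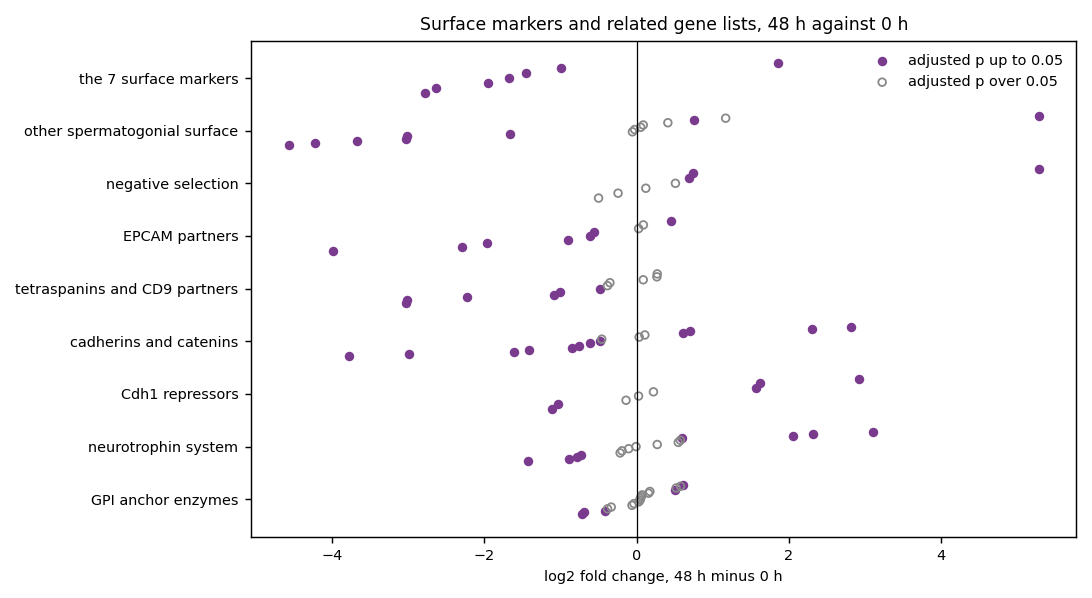
Log2 fold change at 48 h against 0 h (horizontal axis) of each tested gene in the 7 surface markers and 8 related lists (rows); filled points were called by edgeR and open points were not. The surface markers hold 6 filled points below 0 and Cd24a above it, and Kit, which stands in both the spermatogonial surface and the negative selection list, is the point at 5.28.

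Genes that act with each marker were counted in further lists, to be read against all genes tested: at 24 h against 0 h 25.5% were called (14.2% lower and 11.4% higher), at 48 h against 0 h 31.6% (18.5% lower and 13.0% higher), and at 48 h against 24 h 21.3% (12.7% lower and 8.61% higher). Of the partners of EPCAM, meaning claudins it binds and proteases and inhibitors that act on it, 9 of 12 were tested at 48 h against 0 h, with 6 lower and 1 higher, where 18.5% and 13.0% of all genes were, and with a median log2 fold change of -0.62. Without replicate 1 or replicate 3 of 48 h, 3 were lower, and without replicate 2 of 0 h or any replicate of 48 h none was higher. St14, which encodes matriptase, a protease that cleaves EPCAM, went from 32.7 ± 9.14 to 2.05 ± 0.201 CPM (log2 fold change -3.98, edgeR adjusted p = 4.31e-05). The log2 fold change of Cldn4, a tight junction claudin, was -2.29 (edgeR adjusted p = 0.0034), from 4.10 to 0.835 CPM. In the first 24 h, 5 of 10 were lower and none was higher, with 2 lower without replicate 2 of 0 h or replicate 1 of 24 h and 3 lower without replicate 2 or 3 of 24 h. From 24 to 48 h, 3 of 9 were lower.

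Tetraspanins, the immunoglobulin-type partners of CD9 and Hbegf, which belongs to neither group, made a list of 13. Of these, 11 were tested and 6, with Hbegf among them, were lower at both 24 h and 48 h against 0 h. None was higher, where 14.2% and 18.5% of all genes were lower and 11.4% and 13.0% higher. The log2 fold change of Hbegf was -1.74 at 24 h and -2.23 at 48 h. The median log2 fold change of the 11 was -0.49 and -0.48. Without replicate 3 of 0 h, 3 were higher at 24 h and 1 at 48 h. Ptgfrn and Igsf8, which encode proteins that bind CD9 directly, fell, with log2 fold changes of -1.08 and -1.01 at 48 h against 0 h (edgeR adjusted p = 0.000589 and 0.00692). Among tetraspanins, Cd82 (log2 fold change -3.04, edgeR adjusted p = 0.000113) and Tspan8, a marker of SSC-rich fractions (-3.01, edgeR adjusted p = 0.000136), fell, and both also stand in the list of spermatogonial surface proteins. Of the 11, 4 were lower at 48 h against 24 h, and 1 or 2 without replicate 1 or 3 of 24 h or replicate 1 of 48 h.

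Cadherins other than Cdh1, catenins and nectins did not move in 1 direction. Of 15, 5 were lower and 4 higher at 24 h against 0 h, and 8 were lower and 4 higher at 48 h against 0 h, with 5 lower without replicate 3 of 48 h, where 25.5% and 31.6% of all genes were called. Their median log2 fold change was -0.13 and -0.49. Cdh3 (P-cadherin) fell from 129.9 ± 22.3 to 16.3 ± 1.198 CPM at 48 h (log2 fold change -2.99, edgeR adjusted p = 1.97e-05), and Cdh4 (R-cadherin) fell by 3.78 on the log2 scale (edgeR adjusted p = 8.48e-06). Cdh11, a cadherin of mesenchymal cells, rose from 4.34 ± 1.82 to 30.4 ± 3.96 CPM (log2 fold change 2.82, edgeR adjusted p = 0.000555). Inside the cell, Ctnnb1 (beta-catenin) and Jup (plakoglobin), which bind the tail of E-cadherin, fell, with log2 fold changes of -0.85 and -1.41 (edgeR adjusted p = 0.000615 and 0.000162). After 24 h, 7 of 15 were lower and 2 higher, and 4 were lower without replicate 1 or 2 of 24 h or replicate 1 or 3 of 48 h. In that comparison none was higher without replicate 1 of 24 h or replicate 1 of 48 h, and 1 was without replicate 3 of 48 h.

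Among 8 transcription factors known to repress Cdh1, 2 were lower and 2 higher at 24 h against 0 h, and 2 lower and 3 higher at 48 h, where 14.2% and 18.5% of all genes were lower and 11.4% and 13.0% higher. Snai1 (log2 fold change -1.12, edgeR adjusted p = 0.00193) and Twist1 (-1.03, edgeR adjusted p = 0.00684) fell at 48 h against 0 h, while Zeb2 rose from 1.16 ± 1.08 to 8.63 ± 1.70 CPM (log2 fold change 2.92, edgeR adjusted p = 0.00851). Without replicate 2 of 0 h or replicate 2 or 3 of 48 h, Zeb2 was the 1 member that was higher at 48 h. For 24 h against 0 h, 1 was higher without replicate 2 of 0 h or replicate 1 of 24 h and none without replicate 2 or 3 of 24 h. For 48 h against 24 h, 2 were lower, 1 of which was lost without replicate 1 or 2 of 24 h or replicate 1 or 3 of 48 h, and Snai2 was higher by 1.45 (edgeR adjusted p = 0.00376).

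In the neurotrophin system of NGFR, 14 of 17 genes were tested at 24 h against 0 h, with 2 higher and 2 lower, and 15 at 48 h against 0 h, with 4 higher and 4 lower. At 24 h this share is near the 25.5% of all genes called, and at 48 h 31.6% of all genes were called. Without replicate 2 of 0 h or replicate 1 or 2 of 48 h, 2 were lower at 48 h, and in 4 of the 6 fits that left out a library 1 was lower at 24 h (replicate 2 of 0 h and each replicate of 24 h). At that time 1 was higher without replicate 2 of 0 h or replicate 2 or 3 of 24 h. Sort1, the co-receptor of p75 for the precursors of neurotrophins, fell, with log2 fold changes of -0.89 at 24 h (edgeR adjusted p = 0.000596) and -0.78 at 48 h (edgeR adjusted p = 0.000676). Between 24 and 48 h, 3 were higher and 3 lower of 14, with 1 higher without replicate 1 or 3 of 24 h or replicate 3 of 48 h and 1 lower without replicate 1 of 48 h.

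Markers of the somatic cells of the co-culture moved over the same times. Their counts are to be read against all genes tested. At 24 h against 0 h 11.4% of those were higher and 14.2% lower, and at 48 h against 0 h 13.0% and 18.5%. From 24 to 48 h 8.61% were higher and 12.7% lower. The 10 fibroblast and stromal markers summed to 1135 to 1268 CPM per library at 0 h, 3071 to 3537 CPM at 24 h and 4184 to 4483 CPM at 48 h, with 6 of them higher at 24 h and 7 at 48 h, both against 0 h. From 24 to 48 h, 8 were higher and 1 lower, with 5 higher without replicate 1 of 24 h or replicate 1 of 48 h. Of 6 peritubular myoid markers, 5 rose in each of the 3 comparisons, and their sum went from 13.7 to 15.8 CPM at 0 h to 149 to 207 CPM at 24 h and 267 to 317 CPM at 48 h. Of 9 tested Sertoli cell markers, 7 rose and 2 fell at 24 h, and 7 rose and 1 fell at 48 h, against 0 h, where none fell at 24 h without replicate 1 or 2 of 24 h. Their sums were 24.5 to 25.8 CPM at 0 h, 77.2 to 129 CPM at 24 h and 117 to 128 CPM at 48 h. Fshr, the defining receptor of Sertoli cells, had 0 counts in the 0 h libraries and a mean of 0.0508 CPM at 24 h. The 6 Leydig cell markers summed to 4.53 to 6.77 CPM at 0 h, 25.2 to 38.5 CPM at 24 h and 25.6 to 31.9 CPM at 48 h. Of 3 tested members, 2 were higher at 24 h and 3 at 48 h, both against 0 h. Leaving out any replicate of 48 h left 2 higher at that time. Insl3 had 0 counts at 0 h and at most 6 in a later library, and Cyp17a1 and Lhcgr had at most 12 and 2 in any library.

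Of the 7 surface markers, Cd24a rose at both times against 0 h, when these sums were higher too. Thy1, which fibroblasts also make, fell from 0 to 24 h, while the fibroblast sum rose. The 0 h cells had grown on fibroblast feeders, and that sum was already 1135 to 1268 CPM at 0 h. Fn1 and Col5a1 made up most of it, with 0 h means of 466 and 392 CPM, followed by Col1a1 at 157 CPM. Col3a1, Dcn, Postn and Lum had 0 h means of 33.9, 18.6, 8.39 and 1.29 CPM. Col5a1 was not called in any comparison. From 24 to 48 h Thy1 rose, and the fibroblast and myoid sums were also higher at 48 h. The Leydig sum stood at 5.83 and then 4.96 times its 0 h mean at these 2 times. The part of somatic or feeder RNA in the levels of Thy1 and Cd24a was not tested. The sum of the markers of myoid cells, which may also make MCAM, was 12.004 times its 0 h mean at 24 h and 20.4 times at 48 h, where Mcam stood at 33.9% and 25.8%. The 6 endothelial markers, the other cell type known for MCAM, summed to 69.9 to 77.1 CPM at 0 h, 28.3 to 36.2 CPM at 24 h and 20.4 to 23.7 CPM at 48 h. In the comparisons of 24 h and 48 h with 0 h, 14.2% and 18.5% of all genes were lower and 11.4% and 13.0% higher. Of 5 tested endothelial markers, 3 were lower and 1 higher in both, and Emcn had 0 counts at 0 h and at most 4 in a later library. Pecam1 was among those lower (log2 fold change -2.39 at 48 h, edgeR adjusted p = 8.33e-05), and the 1 higher was Tek (log2 fold change 1.53 at 48 h, edgeR adjusted p = 0.00329), whose call at 24 h was lost without replicate 2 of 0 h or replicate 2 of 24 h. These sums were lower at the later times, as Mcam was, and their part in its fall was not tested.

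**Figure D5:**
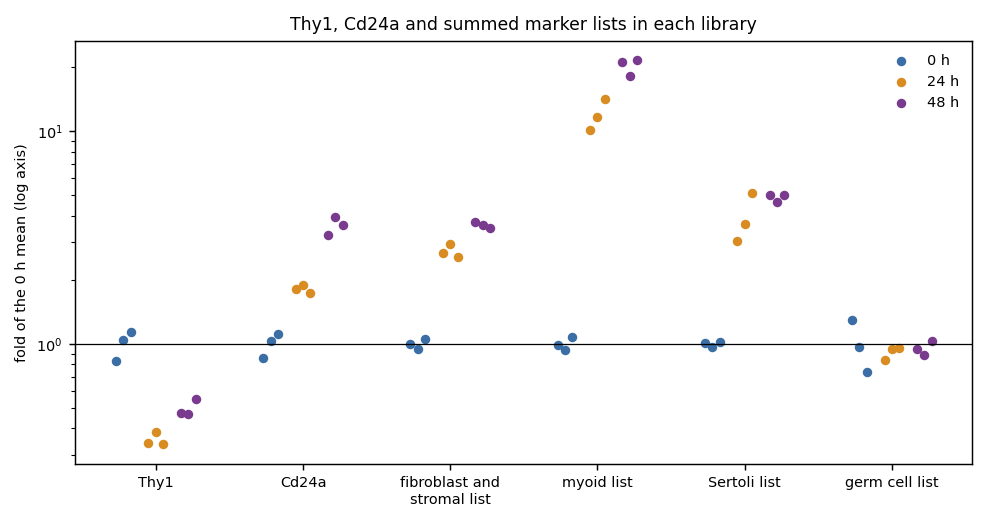
Thy1, Cd24a and the summed CPM of 4 marker lists in each library, as a fold of the 0 h mean (vertical log axis); colours give the time and each point is 1 library. The myoid sum is at 18.2 to 21.6 times its 0 h mean at 48 h and Cd24a at 3.23 to 3.97 times, and Thy1 stays below 1 at 24 and 48 h.

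Over the 9 libraries, the genes whose log2 CPM ran closest to each marker were found among the genes of at least 10 CPM on average, as a description over libraries that share their times. Nearest to Epcam were Tor3a and Fgfr1, a fibroblast growth factor receptor (Pearson r = 0.997 for both), and nearest to Cd9 were Scd2 and Lonp2 (r = 0.997 for both). For Mcam they were Etv4, an ETS factor downstream of growth factor signalling, and Rasgrp2 (r = 0.999 for both), and for Ngfr Ppp2r2c (r = 0.998) and Ccnd1, the cyclin D1 of the cell cycle (r = 0.997). Cdh1 ran closest to Cdk18 (r = 0.996) and Ets2 (r = 0.995), and Thy1 to Pdha1 (r = 0.989) and Ncaph (r = 0.987). Cd24a ran closest to Depdc7 (r = 0.994) and Fkbp9 (r = 0.990). A value of r of at least 0.95 was reached by 695 genes for Mcam but by 100 for Thy1 and 73 for Cd24a. Among the 7 markers themselves, Epcam and Cd9 ran most alike (r = 0.992), Cdh1 and Cd24a ran most opposite (r = -0.96), and Thy1 and Ngfr had r = 0.727.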

How the data were processed

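Poly-A RNA-seq of 9 libraries, 3 replicates each at 0, 24 and 48 h, was analysed. Per the labels and file headers, the authors deposited raw counts of reads per Ensembl gene, not normalized. The submitters' processing notes name fastp, HISAT2, featureCounts and GRCm38, and the annotation release and strand setting are not given in the sources used here. GENCODE M21 held 45229 of 46078 identifiers, and the others took at most 0.121% of the counts of a library. Library totals of 16825251 to 22201892 limit the precision of low counts.

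Each pair of times was fitted on its 6 libraries with edgeR 4.0.16 in R 4.3.3 (filterByExpr, TMM, quasi-likelihood test, two-sided, Benjamini-Hochberg adjustment over all genes tested, threshold 0.05). CPM were TMM-scaled over the 9 libraries, and log2 CPM used a prior count of 2. Replicates were distinct libraries: their counts differed beyond sampling noise in all 9 pairs (chi-square of 7.13 to 81.4 per degree of freedom). Lists were counted, with no set test. Similar genes were the 2 with the highest Pearson r over the 9 libraries at a mean of at least 10 CPM. Alternatives were DESeq2 1.42.0, other scalings and filters, all libraries in 1 fit, a replicate block, offsets for GC content and length, and leaving out each library. Matches to other genes were sought with BLAST 2.17.0 (75 bases, 97% identity). The fit of 24 h against 0 h was tested on simulated counts. Of genes with a true log2 fold change of 1 in size, 39 of 97 were called in the right direction, and 79 of 96 at a size of 2. There were 7 false calls. A missing call thus does not show that a gene was unchanged. The members and lists were chosen with earlier results of these data known. Genes named are the 7 markers, members of the lists where described, and the similar genes. Some genes of the lists are not reported here by name. No protein sequences were used here.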

Additional observations from a re-analysis of the deposited data

How the results depend on the processing

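For the 7 markers in 3 comparisons, 294 refits were made, and 285 kept the direction and the side of the threshold. The 6 lost calls were Cd24a at 24 h against 0 h without replicate 2 of 0 h or any replicate of 24 h and with the replicate block (edgeR adjusted p = 0.0665), and Thy1 between 24 and 48 h when 1 fit held all 9 libraries. The log2 fold change of Epcam at 48 h against 24 h turned to 0.051 with offsets for GC content and length (values for 99.52% of genes tested), to 0.015 without replicate 3 of 24 h and to 0.0023 without replicate 1 of 48 h, and ranged from -0.12 to 0.015 over the fits that left out a library. The cause was not tested. At 24 h against 0 h, 6 or 7 markers were called over the fits that left out a library and 6 with the replicate block, at 48 h against 0 h 7, and at 48 h against 24 h 5, with 4 when all 9 libraries entered 1 fit. The main counts of genes called were 4494 at 24 h against 0 h, 5602 at 48 h against 0 h and 3732 at 48 h against 24 h. Over the fits that left out a library, the first ranged from 2607 (without replicate 2 of 24 h) to 6023 (without replicate 3 of 0 h). The second ranged from 3471 to 7116 and the third from 1857 to 4356 in these fits. Over the other alternatives, the ranges were 3007 to 6341, 4013 to 7612 and 1043 to 4543. When 1 fit held all 9 libraries, 1043 genes were called at 48 h against 24 h.

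Same-numbered libraries did not deviate together (correlations of -0.26 to 0.02 at 24 h and 0 h, -0.28 to 0.20 at 48 h and 0 h, -0.06 to 0.10 at 48 h and 24 h). With the replicate block, 3007, 4013 and 2497 genes were called.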

Other observations

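Surface proteins used to select against other cells when spermatogonia are sorted were read beside the markers, as a list of 8 that includes Kit. Of the 7 tested, 3 were higher and 1 lower at 24 h against 0 h, and 3 were higher and none lower at 48 h against 0 h, where 11.4% and 13.0% of all genes were higher and 14.2% and 18.5% lower. Of these, 5 were higher at 24 h without replicate 1 of 0 h, and none was lower without replicate 1 or 2 of 24 h. At 48 h, 1 was higher without replicate 1 or 3 of 48 h, and 1 was lower without replicate 1 of 0 h. H2-K1, a class I histocompatibility gene, rose by 0.79 on the log2 scale at 24 h against 0 h (edgeR adjusted p = 0.00265), from 52.1 to 89.7 CPM, and fell from 24 to 48 h, with a log2 fold change of -0.66 (edgeR adjusted p = 0.0011). Its relative H2-D1 also fell from 24 to 48 h, with a log2 fold change of -0.97 (edgeR adjusted p = 0.000187). Between 24 and 48 h 2 of the 7 were higher and 3 lower, where 8.61% and 12.7% of all genes were. In that comparison none was higher without replicate 1 of 24 h or replicate 1 or 3 of 48 h, and 1 was higher without replicate 2 of 24 h.

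Enzymes that make and remodel the GPI anchors of THY1 and CD24 were called about as often as all genes (25.5% at 24 h and 31.6% at 48 h, both against 0 h). Of 18, 2 were higher and 2 lower at 24 h against 0 h, and 2 higher and 3 lower at 48 h against 0 h, and each of these calls was lost in at least 1 fit that left out a library. Those counts went to 0 in both directions without replicate 2 or 3 of 24 h in the first comparison, and without replicate 2 of 0 h or replicate 2 or 3 of 48 h in the second. Between 24 and 48 h, 1 was higher and 3 were lower, where 8.61% and 12.7% of all genes were. Gpaa1, a subunit of the enzyme that attaches the anchor, was lower by a log2 fold change of -0.37 (edgeR adjusted p = 0.00499). In that comparison 1 was lower without replicate 1 of 24 h or replicate 1 of 48 h, and none was higher without replicate 1 or 3 of 24 h or replicate 1 or 3 of 48 h. The median log2 fold change of the 18 was 0.09 at 24 h and 0.05 at 48 h against 0 h.

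The 6 macrophage markers summed to 15.5 to 17.5 CPM at 0 h, 6.4005 to 10.2 CPM at 24 h and 6.30 to 9.06 CPM at 48 h. Cd68 made up most of this sum, with means of 15.6, 5.82 and 5.42 CPM in that order, so the sum mainly follows 1 gene. Lyz2 and Csf1r had higher means at 48 h than at 0 h, with no call in that comparison. Of the list, 3 were tested. Of these, Cd68 was lower at 24 h and 48 h against 0 h, and Csf1r was higher at 24 h (log2 fold change 1.90, edgeR adjusted p = 0.033), a call lost without replicate 2 or 3 of 0 h or replicate 1 or 3 of 24 h. C1qa had 0 counts at 0 h and at most 3 in a later library. The 7 germ cell markers summed to 1515 to 2637 CPM at 0 h, 1723 to 1949 CPM at 24 h and 1805 to 2103 CPM at 48 h. At 24 h against 0 h, 7 of 7 were not called by edgeR, where 25.5% of all genes were called. In that comparison 1 germ cell marker was lower without replicate 1 of 0 h. The 1 lower at 48 h against 0 h was lost in 5 of the 6 fits that left out a library (replicates 2 and 3 of 0 h and each replicate of 48 h) and under both other scalings.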
